A study of Mus musculus with 12 samples.

Results

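The comparison described here is that of B16-OVA cells held for 24 h in the MEK inhibitor GDC-0623 (MEKi) with B16-OVA cells held for 24 h in DMSO, its solvent. Its members were taken from the sample titles, 3 MEKi arrays and 3 DMSO arrays, which are 6 of the 12 arrays in the series. The other 6 arrays are the same groups at 72 h and enter only where the effect at 24 h is set against that at 72 h. B16-OVA is a mouse melanoma line, grown under blasticidin, that carries the model antigen ovalbumin. Both groups were seeded at 450000 cells in 22 ml, received 100 nM GDC-0623 or an equal concentration of DMSO on the following day, and were harvested as frozen pellets, of which 200 ng RNA was labelled for the arrays. The study's methods place the dose near the IC50 of the inhibitor. Replicates were numbered 1 to 3 and nothing states that they came from separate cultures, so that the spread behind each p-value may be technical only. All 45037 probe sets other than array controls were tested, and 18193 genes were described, each by its own probe set with the highest mean signal.

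MEK1 and MEK2 are the kinases that phosphorylate and activate ERK1 and ERK2, the last kinases of the RAS, RAF, MEK and ERK cascade. Active ERK drives the transcription of immediate early factors and of ETS factors of the PEA3 group, stabilises MYC, induces D cyclins and induces its own brakes, the dual-specificity phosphatases and the Sprouty and Spred proteins. In melanocytes and melanoma cells the same cascade acts on MITF, the factor that controls pigment genes.

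The array values are on a log2 scale, and a difference is MEKi minus DMSO in log2 units with its moderated standard error from limma. A gene was called where limma's p, adjusted by the Benjamini-Hochberg method over all probe sets, was under 0.05, and "rose" and "fell" are kept for called genes. Array medians were 5.31, 5.32 and 5.32 in DMSO and 5.34, 5.33 and 5.33 in MEKi. The poly-A spike controls read 7.22, 7.06 and 7.2 in DMSO and 6.99, 6.91 and 7.07 in MEKi. The 18S control probe sets read 12.13, 12.35 and 12.14 in DMSO and 12.57, 12.63 and 12.43 in MEKi, and the interquartile range of the arrays was 4.29 to 4.33 in DMSO and 4.24 to 4.26 in MEKi. Whether these offsets had a part in any gene's result was not tested.

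The cells carried the markers of their labelled type. All 10 melanocyte markers had a DMSO mean of at least 10.7, and their summed signal was 16.62 to 16.64 on the log2 scale in DMSO and 16.77 to 16.82 in MEKi. Of these 10, Gpr143, Tyr and Mitf rose and Sox10, the lineage factor, read 12.37, 12.29 and 12.37 in DMSO and 12.32, 12.35 and 12.38 in MEKi. The immune markers were low, with 6 of 10 below the median signal and a summed level of 8.44 to 8.49 in DMSO and 8.52 to 8.6 in MEKi. Ptprc, the pan-leukocyte phosphatase CD45, had a DMSO mean of 2.91. Fibroblast markers summed to 10.34 to 10.42 in DMSO and 10.74 to 10.82 in MEKi, with 6 of 10 below the median signal, and most of that signal was Pdpn at 9.98, 9.87 and 9.93 against 10.32, 10.42 and 10.31. Endothelial markers summed to 7.56 to 7.67 and 7.65 to 7.97, with 7 of 8 below the median signal, and epithelial markers to 7.69 to 7.7 and 7.68 to 7.78, again with 7 of 8 below it. Among the markers of other cell types, limma called the collagen gene Col1a2 higher, at 6.58, 6.69 and 6.75 against 7.24, 7.33 and 7.51. Pdpn was higher as well (0.42 ± 0.07), and the endothelial Vwf (0.98 ± 0.17) and the myeloid Lyz2 (0.38 ± 0.07) were higher at low signal, the former losing its call without DMSO replicate 3 or MEKi replicate 1 (highest adjusted p, 0.0579) and the latter without any DMSO array or MEKi replicate 2 (up to 0.0672). Pdgfra was lower (-0.36 ± 0.09), a call lost with the replicate block (0.0708) and without any array but MEKi replicate 3 (up to 0.155). The part of such cells in the results was not tested. In a bulk sample, fewer cells of a type and less RNA per cell cannot be told apart.

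Under MEKi, 1724 probe sets were higher (3.83%) and 2077 lower (4.61%), together 8.44% of those tested. Counted as genes, 912 rose (5.01%) and 1067 fell (5.86%), together 10.9%, and the median difference over all genes was 0.007. Most changes were small. Among the genes that rose, 698 moved by less than 1.5-fold and 172 by 1.5-fold to 2-fold, and among those that fell the counts were 917 and 124. At 2-fold or more stood 42 genes that rose (0.231%) and 26 that fell (0.143%), of which 1 and 4 moved by over 4-fold. The 3 MEKi values lay entirely to 1 side of the 3 DMSO values in 6271 genes (34.5%). Of 1204 called genes with at least 2 probe sets, 617 had a further probe set called in the same direction. Luc7l2 was the only gene with probe sets called both ways.

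**Figure D1:**
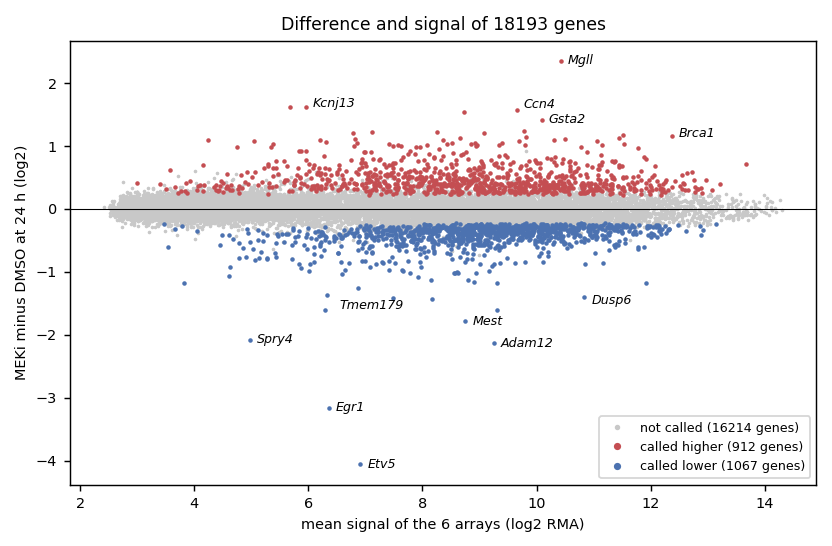
Each point is a gene, with its mean signal over the 6 arrays on the x axis (log2 RMA) and the difference MEKi minus DMSO at 24 h on the y axis (log2). Called genes lay on both sides of 0, 912 above and 1067 below, and the longest distances from 0 were those of Etv5 and Egr1 below and Mgll above.

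The third MEKi array stood nearer to the controls than its 2 partners. It was the MEKi array closest to the DMSO mean in 74.7% of the genes that rose and 75.8% of those that fell. The median deviation from the DMSO mean was 0.433, 0.48 and 0.337 over the genes that rose and -0.407, -0.427 and -0.297 over those that fell, for MEKi replicates 1 to 3. Without it, 2273 probe sets were higher and 2818 lower, whereas leaving out any other array gave 629 to 866 higher and 504 to 881 lower. Of 453 called genes that are named or listed here, 165 kept the call in all 6 fits of 5 arrays. Genes named below are among those 165 unless the arrays that decide their call are given. Lists given with counts also have counts in the fits of 5 arrays, for some in only 1 of the directions called. Over all genes 10.9% were called, 5.01% higher and 5.86% lower, and each list count below stands against that. A share near it is not read as a response of the list.

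**Figure D2:**
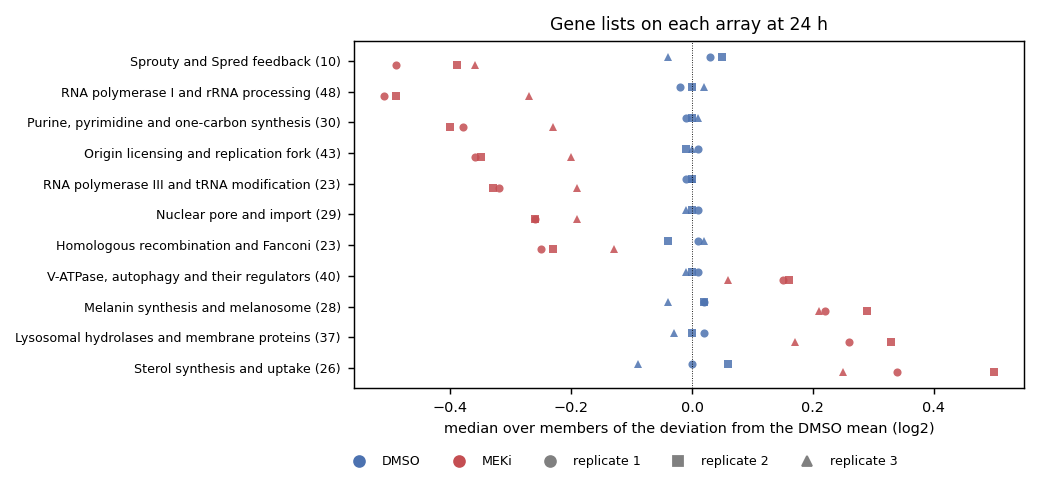
The x axis is the median, over the members of each gene list, of a member's deviation from its DMSO mean (log2), and each symbol is 1 array (blue DMSO, red MEKi, with circle, square and triangle for replicates 1, 2 and 3; the number of measured members is in parentheses). In all lists shown the 3 MEKi arrays lay to 1 side of the 3 DMSO arrays, and MEKi replicate 3 was the closest to DMSO.

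The PEA3-group ETS factor Etv5, a transcription factor induced by ERK, showed the largest fall on the array. It read 8.86, 8.98 and 8.99 in DMSO and 4.35, 4.22 and 6.08 in MEKi, a 16.7-fold fall (-4.06 ± 0.42, limma adjusted p = 0.00256). The groups were far apart and the third MEKi array kept more of the signal than the other 2. Of 14 measured ETS factors, 6 fell and 1 rose, with a median difference of -0.136. Etv4, its PEA3-group relative, fell by 0.88 ± 0.07, from 6.33, 6.24 and 6.28 to 5.42, 5.47 and 5.32. Elk3, a ternary complex factor that partners SRF, went from 9.70, 9.66 and 9.66 to 8.78, 8.66 and 8.85 (-0.91 ± 0.07, adjusted p = 0.00126). Erf, an ETS repressor that ERK exports from the nucleus, fell by 0.45 ± 0.07. The exception was Elf1, which rose from 7.26, 7.53 and 7.19 to 8.20, 8.56 and 8.00 (0.93 ± 0.14). Fits of 5 arrays called 4 to 5 of the factors lower and 1 higher.

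Among 22 immediate early and AP-1 factors, the genes transcribed within minutes of ERK activation, 8 fell and 2 rose, and the median difference was -0.20. Egr1, a zinc finger factor, read 8.22, 7.73 and 7.88 in DMSO and 4.66, 5.01 and 4.69 in MEKi, an 8.92-fold fall (-3.16 ± 0.14, adjusted p = 0.000339). Here the third MEKi array was as low as the other 2. Maff, a small MAF protein, fell from 6.92, 7.32 and 7.05 to 5.32, 5.40 and 5.75 (-1.61 ± 0.14). Fos, the AP-1 subunit, fell from 9.09, 8.73 and 8.83 to 7.26, 7.23 and 7.85 (-1.44 ± 0.17). In both, the groups did not overlap, as in 34.5% of all genes. Ier2, another immediate early gene, fell by 1.00 ± 0.09, and the nuclear receptor Nr4a2 fell by 0.47 ± 0.07. Its relative Nr4a3 rose, from 11.27, 11.29 and 11.33 to 12.30, 12.34 and 12.14 (0.96 ± 0.07, adjusted p = 0.00123), as did the Krüppel-like factor Klf6 (0.69 ± 0.11). Fosl1, an AP-1 subunit that ERK stabilises, had overlapping groups at 5.10, 4.84 and 5.10 against 5.09, 5.08 and 4.83 (-0.01 ± 0.10). Fits of 5 arrays called 5 to 8 of the list lower and 2 to 4 higher.

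Promoter stretches of Srf and Maff are shown because both genes belong to that list and their upstream bases hold the elements by which serum and cAMP signalling are known to reach immediate early genes. They are RefSeq sequences on GRCm38.p6, 5′ to 3′ on the gene's strand, from 120 bases before the start site to the base before it. Capitals mark a CArG box, the binding element of SRF, in Srf (chr17:46556163-46556282, minus strand) and a CRE, TGACGTCA, in Maff (chr15:79347400-79347519, plus strand).
Srf: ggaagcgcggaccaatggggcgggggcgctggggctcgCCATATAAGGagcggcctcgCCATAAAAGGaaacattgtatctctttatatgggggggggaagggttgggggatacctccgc
Maff: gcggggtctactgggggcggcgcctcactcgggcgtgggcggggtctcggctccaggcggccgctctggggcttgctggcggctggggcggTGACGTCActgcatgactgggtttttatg
Exact matches on both strands were counted in the 250 bases before the start site of 14452 measured genes with a RefSeq promoter, and 1.43% held a CArG box and 2.5% a CRE. Of the 17 immediate early genes with a promoter, Srf and Egr2 held a CArG box (11.8%) and 1 a CRE. Srf itself fell from 8.74, 8.56 and 8.80 to 8.34, 8.27 and 8.45 (-0.35 ± 0.08, adjusted p = 0.0399). That call was lost without DMSO replicate 1 or 3 or MEKi replicate 1 or 2, where the adjusted p reached 0.14.

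The Sprouty and Spred proteins, which block RAS activation as feedback, moved in 1 direction. All 10 measured members of the list had a negative difference, 7 fell, and the median was -0.41, set against 0.007 over all genes. Spry4 read 6.13, 6.13 and 5.80 in DMSO and 3.75, 3.89 and 4.17 in MEKi (-2.08 ± 0.13, adjusted p = 0.000517). Spred1 read 10.43, 10.39 and 10.43 against 9.65, 9.61 and 9.76 (-0.74 ± 0.07), with 6 of its 8 probe sets called lower. Spred2 fell by 0.84 ± 0.09 and Spry2 by 0.72 ± 0.09. In each of these 4 genes the lowest DMSO array was above the highest MEKi array. Groups were separate, in either direction, in 34.5% of all genes. Fits of 5 arrays called 4 to 6 members lower.

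The ERK phosphatases split. Of 11 measured DUSP genes, 2 fell and 3 rose, and the median was 0.023 (1 to 2 lower and 1 to 4 higher in fits of 5 arrays). Dusp6, a cytoplasmic phosphatase that prefers ERK, read 11.49, 11.57 and 11.57 in DMSO and 9.95, 9.88 and 10.58 in MEKi (-1.41 ± 0.17, adjusted p = 0.00401). Dusp4, a nuclear phosphatase, fell from 10.70, 10.70 and 10.78 to 10.09, 10.17 and 10.39 (-0.51 ± 0.09), a call lost without MEKi replicate 1 (adjusted p = 0.0511) or 2 (0.0548). Dusp2, also nuclear, rose from 8.40, 8.41 and 8.39 to 8.73, 8.84 and 8.86 (0.41 ± 0.06, adjusted p = 0.00856). Dusp1 and Dusp10, which act mainly on JNK and p38, had differences of 0.53 ± 0.10 and 0.66 ± 0.13. Dusp1 lost its call in 4 and Dusp10 in 5 of the fits of 5 arrays, with adjusted p up to 0.0674 and 0.0813. Of the 2, Dusp1 kept the call without DMSO replicate 1 or MEKi replicate 3 and Dusp10 without MEKi replicate 3.

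**Figure D3:**
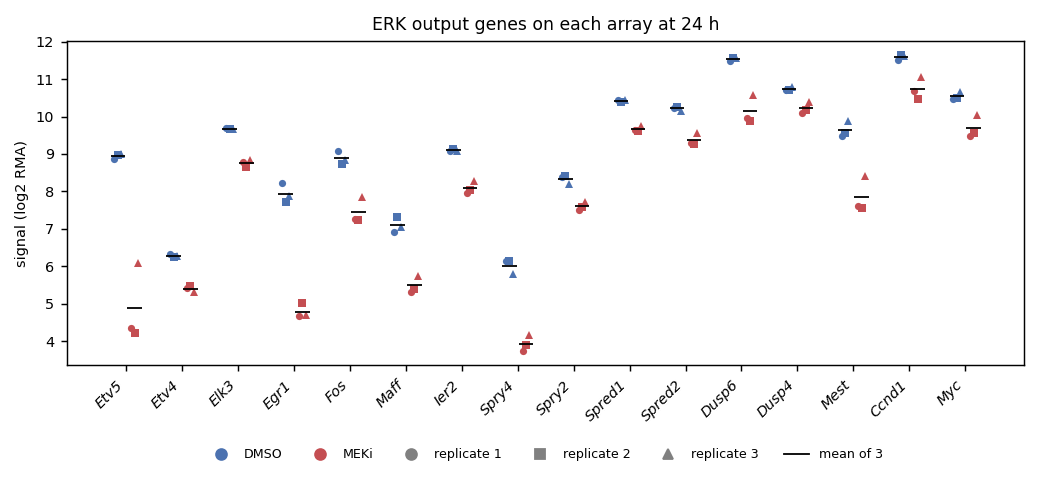
Signal (log2 RMA) on each of the 6 arrays of 16 genes from the ERK output lists, all of which fell. Genes of these lists that rose or were not called, among them Elf1, Nr4a3, Klf6, Dusp2, Plat and Fosl1, are not drawn. Blue marks DMSO and red MEKi, with circle, square and triangle for replicates 1, 2 and 3 and a line for the mean of 3. No gene shown had overlapping groups, which also held in 34.5% of all genes and was a condition for naming the most extreme genes. Etv5, Mest and Dusp6 showed MEKi replicate 3 well above the other MEKi arrays.

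The list of other ERK-induced genes had 5 that fell and 1 that rose among 20 measured (median -0.14, 3 to 5 lower in fits of 5 arrays). It was drawn up with earlier results of these data known, so the fall of a member such as Mest does not show that ERK induces it. Ccnd1, the cyclin D1 of the G1 phase, fell from 11.52, 11.63 and 11.61 to 10.69, 10.46 and 11.05 (-0.85 ± 0.13, adjusted p = 0.00931), on all 3 of its probe sets. Myc read 10.46, 10.50 and 10.65 against 9.47, 9.57 and 10.05 (-0.84 ± 0.14, adjusted p = 0.0119), and its call was lost without MEKi replicate 2 (0.0563). Mest, an imprinted gene of the alpha/beta hydrolase fold, fell from 9.49, 9.56 and 9.89 to 7.60, 7.56 and 8.42 (-1.79 ± 0.22). In all 3 the groups did not overlap, as in 34.5% of all genes. The 2 plasminogen activator genes of the list moved apart, with Plaur, the urokinase receptor, falling by 0.48 ± 0.07 and Plat, the tissue-type activator, rising by 0.90 ± 0.14. In the cascade itself 2 of 20 core members were higher and 1 lower, 15% called against 10.9% of all genes. The median was 0.056, with 2 higher and 0 to 2 lower in fits of 5 arrays. Brighter probe sets, a trended and robust prior and array weights each called 3 higher and 3 lower. Rasgrp3, an exchange factor that loads RAS with GTP, rose from 10.42, 10.37 and 10.29 to 10.95, 11.07 and 10.83 (0.59 ± 0.08), and the RAS relative Mras rose by 0.44 ± 0.07. The adaptor Shc1 had a difference of -0.27 ± 0.07, a call lost with the replicate number as a block (adjusted p = 0.0729) and in all fits of 5 arrays but that without MEKi replicate 3 (up to 0.153).

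In the MYC network, 2 of 13 genes rose and 2 fell. The genes that rose were Mxd4 and Mxd1, which compete with MYC for its partner MAX. Mxd4 read 6.46, 6.23 and 6.31 in DMSO and 7.39, 7.57 and 7.19 in MEKi (1.05 ± 0.10, adjusted p = 0.0023), with 3 of its 4 probe sets called. Mxd1 (0.51 ± 0.10) kept its call only without MEKi replicate 3, with adjusted p up to 0.0837 in the other fits of 5 arrays. Fits of 5 arrays called 1 to 3 members higher and 0 to 2 lower.

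Genes of RNA polymerase I and rRNA processing make the ribosomal RNA in the nucleolus. All 48 measured members had a negative difference and 39 fell, none rose, and the median was -0.422. On the single arrays the list's median deviation from DMSO was -0.51, -0.49 and -0.27 in MEKi and lay within -0.02 and 0.02 in DMSO. The count was 44 without MEKi replicate 3 and 9 to 18 without any other array, while the median stayed between -0.496 and -0.382. Polr1b, the second-largest subunit of RNA polymerase I, read 9.22, 9.22 and 9.09 in DMSO and 8.24, 8.44 and 8.45 in MEKi (-0.80 ± 0.08, adjusted p = 0.0023). Dkc1, the pseudouridine synthase of box H/ACA particles, fell from 11.57, 11.63 and 11.58 to 10.88, 10.80 and 11.12 (-0.66 ± 0.09). The MEKi and DMSO arrays did not overlap in these 2 genes, as in 34.5% of all genes. Rrp12 (-0.61 ± 0.09), Rcl1 (-0.57 ± 0.08) and Tsr1 (-0.55 ± 0.08), factors of ribosome maturation, fell as well. Fbl, the methyltransferase fibrillarin, had a difference of -0.61 ± 0.10 and lost its call without MEKi replicate 1 (adjusted p = 0.0539).

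Stretches of 2 promoters from that list are shown because each held the ETS site CCGGAAGT more than once (RefSeq, GRCm38.p6, gene's strand, -120 to -1 from the start site). Capitals mark the site on either strand, which reads ACTTCCGG on the other. Utp4 lies at chr8:106893520-106893639 on the plus strand and Ltv1 at chr10:13193138-13193257 on the minus strand.
Utp4: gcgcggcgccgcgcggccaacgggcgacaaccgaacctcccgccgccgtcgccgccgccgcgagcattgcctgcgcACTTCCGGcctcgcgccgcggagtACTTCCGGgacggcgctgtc
Ltv1: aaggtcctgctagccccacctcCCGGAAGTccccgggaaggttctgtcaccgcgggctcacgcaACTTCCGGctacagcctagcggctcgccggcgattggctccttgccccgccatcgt
The site was found in 9 of the 44 list genes with a promoter (20.5%) and in 4.95% of all measured genes with one. Of those 9 genes, 8 fell, and of the 35 without the site 28 fell. Utp4 read 10.35, 10.35 and 10.37 in DMSO and 9.85, 9.83 and 10.10 in MEKi (-0.43 ± 0.08), and Ltv1 10.60, 10.64 and 10.62 against 10.26, 10.32 and 10.34 (-0.31 ± 0.06). Both calls held without MEKi replicate 3 and were lost without any other array, with adjusted p up to 0.0789 for Utp4 and 0.0773 for Ltv1.

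Of the RNA polymerase III and tRNA modification genes, 13 of 23 fell and none rose (median -0.29, 14 without MEKi replicate 3, 3 to 4 without any other array and 8 with the replicate number as a block). Polr3g, a subunit of RNA polymerase III, read 7.85, 7.89 and 7.74 in DMSO and 6.91, 6.93 and 7.17 in MEKi (-0.82 ± 0.09, adjusted p = 0.00275). Pus7, a pseudouridine synthase, fell from 8.90, 8.94 and 8.89 to 8.13, 7.89 and 8.34 (-0.79 ± 0.11). In neither gene did the groups overlap, as in 34.5% of all genes. Aminoacyl-tRNA synthetases, which charge tRNAs, had 6 of 22 lower (median -0.183, 1 to 6 in fits of 5 arrays), among them Vars, the valine enzyme (-0.49 ± 0.07). Translation factors had 4 of 22 lower and 1 higher (median -0.134), with 8 lower and 1 higher without MEKi replicate 3 and none called without any other array.

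Of 16 measured cytosolic ribosomal protein genes, 2 fell and the median was -0.08 (0 to 2 lower in fits of 5 arrays). The share called was 12.5%, against 10.9% of all genes. Rpl37 read 10.87, 10.88 and 10.83 against 10.57, 10.50 and 10.43 (-0.36 ± 0.06), and Rps6 10.59, 10.61 and 10.63 against 10.33, 10.28 and 10.34 (-0.29 ± 0.06). Rpl37 lost its call without DMSO replicate 1 or 2 or MEKi replicate 2 (0.0569 at most) and Rps6 without any array but MEKi replicate 3 (up to 0.0816). Ribosomal protein genes have many near-identical copies, which probes can share. Mitochondrial ribosome and import genes had 7 of 27 lower (median -0.183), with 13 without MEKi replicate 3 and at most 1 without any other array. The cytosolic chaperones had 0 of 21 called at a median of -0.203, and the TCA cycle and oxidative phosphorylation genes 0 of 29 at 0.02. At an unadjusted p under 0.05, 12 of the chaperones were lower and none higher, and 3 of the latter genes were higher and 3 lower. Without MEKi replicate 3 the counts were 4 chaperones lower and 1 of the latter genes higher.

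Of 30 measured genes of purine, pyrimidine and folate-linked synthesis, 21 fell and none rose (median -0.33), with 21 without MEKi replicate 3 and 8 to 12 without any other array. Ctps, which makes CTP, read 10.84, 10.87 and 10.84 in DMSO and 10.22, 10.12 and 10.34 in MEKi (-0.62 ± 0.07, adjusted p = 0.00368). Cad, which carries out the first steps of pyrimidine synthesis, fell from 9.58, 9.64 and 9.62 to 9.01, 8.93 and 9.16 (-0.58 ± 0.07). Atic, which completes IMP, fell by 0.57 ± 0.08. In none of the 3 did the groups overlap, which held in 34.5% of all genes. Among 10 polyamine and methionine cycle genes 5 fell (1 to 5 in fits of 5 arrays). Mtap, the salvage phosphorylase, fell by 0.40 ± 0.06. Odc1, the first enzyme of polyamine synthesis and a MYC target, went from 12.47, 12.50 and 12.45 to 12.01, 12.06 and 12.18 (-0.39 ± 0.07), a call lost without MEKi replicate 1 (adjusted p = 0.0591) or 2 (0.0561).

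Nuclear pore and import genes showed 12 of 29 lower and none higher (median -0.243, 14 without MEKi replicate 3, 3 to 4 without any other array and 5 with the replicate block). Rcc1, the exchange factor of the nuclear GTPase Ran, fell by 0.54 ± 0.08, Xpot, the tRNA exporter, by 0.42 ± 0.06 and Nup155, a scaffold nucleoporin, by 0.37 ± 0.06. Splicing and mRNA export genes had 5 of 25 lower (median -0.173), with 8 without MEKi replicate 3, at most 2 without any other array and 3 with the replicate block. The proteasome had 1 of 25 called, Psmd8, which rose from 12.40, 12.48 and 12.39 to 13.05, 13.16 and 12.84 (0.59 ± 0.09) while the list's median was -0.073. In fits of 5 arrays 1 member was higher and 0 to 1 lower. The proteasome had 4% called and the splicing list 20%, against 10.9% of all genes.

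**Figure D4:**
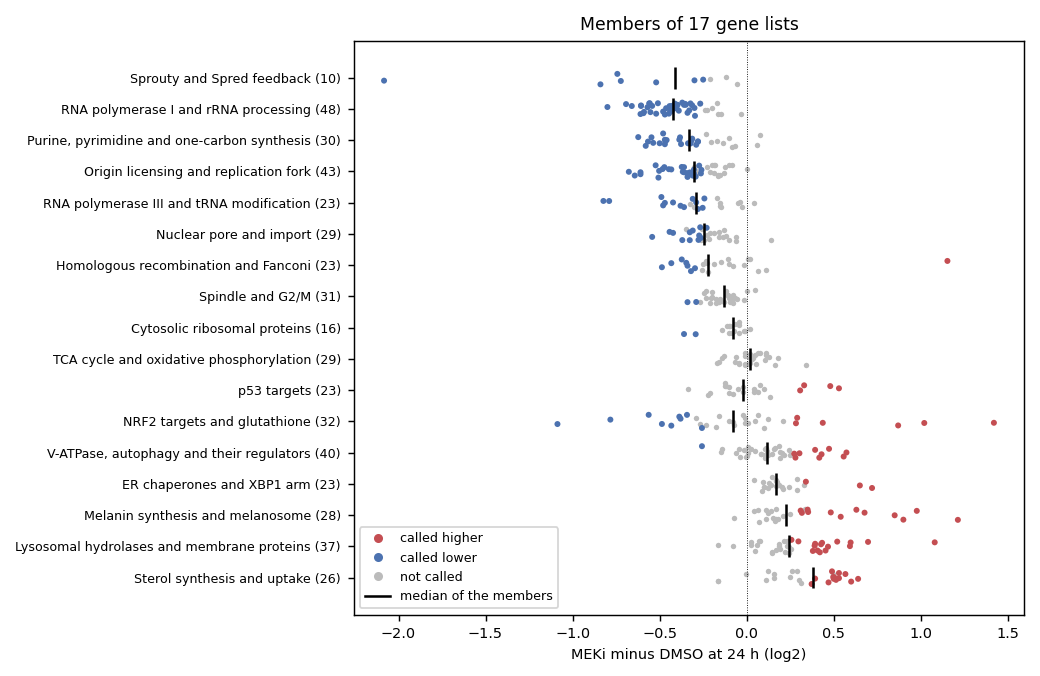
Differences MEKi minus DMSO at 24 h (log2, x axis) of the members of 17 gene lists, with the number of measured members in parentheses. Red points rose, blue points fell, grey points were not called, and the black line is the median of the members, which ran from -0.422 for RNA polymerase I and rRNA processing to 0.383 for sterol synthesis and uptake.

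Among the cell cycle genes, of 20 cyclin, CDK and CDK inhibitor genes, 7 fell and 2 rose (median -0.035, 3 to 7 lower in fits of 5 arrays). Cdk6, the G1 kinase that cyclin D activates, read 9.03, 9.09 and 9.09 in DMSO and 7.99, 8.00 and 8.16 in MEKi, a fall of about the same size on all 3 arrays (-1.02 ± 0.07, adjusted p = 0.000813). Its relative Cdk4 had a difference of -0.04 ± 0.06. Ccne1, cyclin E1, fell by 0.37 ± 0.06. The inhibitor p27 gene Cdkn1b had overlapping groups, at 10.49, 10.49 and 10.32 against 10.65, 10.63 and 10.30 (0.09 ± 0.10). E2F and RB genes had 6 of 16 lower (median -0.18, 2 to 5 in fits of 5 arrays), with E2f3, an activator of S-phase genes, at -0.63 ± 0.08 and E2f7, a repressor of them, at -0.51 ± 0.06.

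Origin licensing and replication fork genes had 26 of 43 lower and none higher, at a median of -0.303, with 30 without MEKi replicate 3 and 7 to 14 without any other array. Cdt1, which loads the MCM helicase, read 12.13, 12.08 and 12.08 in DMSO and 11.40, 11.33 and 11.63 in MEKi (-0.64 ± 0.09, adjusted p = 0.00543). Pold2, a subunit of DNA polymerase delta, fell from 10.53, 10.48 and 10.60 to 9.83, 9.70 and 10.05 (-0.68 ± 0.09). Mcm10 (-0.61 ± 0.08), the MCM subunit Mcm3 (-0.51 ± 0.06), the licensing ATPase Cdc6 (-0.48 ± 0.07) and Uhrf1, which brings DNMT1 to new DNA (-0.61 ± 0.09), also fell. The spindle and G2/M genes had 2 of 31 lower at a median of -0.13, but 10 with brighter probe sets, 12 with a trended and robust prior and 9 with array weights. Those were the phosphatase gene Cdc25b (-0.34 ± 0.07) and the centromeric histone gene Cenpa (-0.29 ± 0.06), and both lost the call in every fit of 5 arrays but that without MEKi replicate 3, with adjusted p up to 0.0839 and 0.0942, while without that array 8 members were called. Mki67, the proliferation marker Ki-67, read 12.04, 12.11 and 12.03 against 11.91, 12 and 11.93 (-0.11 ± 0.06, adjusted p = 0.323). The spindle list had 6.45% called as reported, against 10.9% of all genes.

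In homologous recombination, 7 of 23 genes fell and 1 rose (median -0.223, 2 to 10 lower in fits of 5 arrays). The gene that rose was Brca1, which read 11.86, 11.74 and 11.79 in DMSO and 13, 13.11 and 12.74 in MEKi (1.15 ± 0.10, adjusted p = 0.00151). All 4 of its probe sets were called higher. Of the 23 list members 15 were not called, and 5, Brca1 among them, had a positive difference. Brip1, the helicase that binds BRCA1, fell from 7.49, 7.41 and 7.42 to 7.01, 6.99 and 7.02 (-0.43 ± 0.06), and the nuclease Exo1 fell by 0.49 ± 0.06. Bard1, the obligate partner of BRCA1, had a difference of -0.37 ± 0.07 and lost its call without DMSO replicate 3 or MEKi replicate 1 or 2 (adjusted p up to 0.0589). Of 10 measured histone genes 1 was called, the linker histone H1f2, which rose by 0.88 ± 0.12 (1 in fits of 5 arrays). That share of 10% stood beside 10.9% of all genes. Among 39 DNA methylation and chromatin genes 10 fell and 1 rose (median -0.103, 2 to 13 lower in fits of 5 arrays), with Kdm2b, a histone demethylase, at -0.60 ± 0.07.

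Of 23 p53 targets, 4 rose and none fell (median -0.02), 17.4% called against 10.9% of all genes. Fits of 5 arrays called 2 to 4 higher and 0 to 2 lower, and a trended and robust prior 4 higher and 3 lower. Trp53inp1, a stress gene of the p53 pathway, rose from 9.53, 9.60 and 9.50 to 9.97, 10.11 and 10.14 (0.53 ± 0.07) and Ddit4, the mTORC1 inhibitor REDD1, from 8.16, 8.36 and 8.35 to 8.71, 8.75 and 8.85 (0.48 ± 0.08). Phlda3, an AKT repressor, had a difference of 0.31 ± 0.07, lost with the replicate block (adjusted p = 0.0581) and in every fit of 5 arrays but that without MEKi replicate 3 (up to 0.104). The BCL2 family and caspases had 4 of 22 lower and none higher (median 0.027, 1 to 4 lower and 0 to 1 higher in fits of 5 arrays). Bcl2, which protects mitochondria, read 9.90, 10.07 and 9.93 against 9.49, 9.58 and 9.59 (-0.41 ± 0.07), and its call was lost without MEKi replicate 1 (0.059). Bcl2l11, the pro-apoptotic BIM that ERK marks for degradation, read 6.31, 6.26 and 6.33 against 6.74, 6.66 and 6.34 (0.28 ± 0.10, adjusted p = 0.141).

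Mgll, the monoacylglycerol lipase that releases the last fatty acid of a glyceride, showed the largest rise on the array. It read 9.31, 9.27 and 9.19 in DMSO and 11.73, 11.87 and 11.23 in MEKi (2.35 ± 0.15, adjusted p = 0.000584), with 3 of 4 probe sets called. Of 34 lipolysis, lipid droplet and fatty acid oxidation genes, 7 rose and 1 fell (median 0.034, 3 to 7 higher in fits of 5 arrays). Dgat1, which makes triacylglycerol, rose from 9.13, 9.23 and 9.13 to 9.63, 9.77 and 9.62 (0.51 ± 0.07). Ppargc1a, the coactivator PGC-1 alpha of mitochondrial genes, had a difference of 0.80 ± 0.16 with all 5 of its probe sets called, and lost its call without DMSO replicate 2 or 3 or MEKi replicate 1 or 2 (adjusted p up to 0.0782).

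Of 26 sterol synthesis and uptake genes, 13 rose, none fell and 13 were not called, and the median was 0.383. The per-array medians were 0.34, 0.50 and 0.25 in MEKi and 0.00, 0.06 and -0.09 in DMSO. The count was 15 without MEKi replicate 3 and 2 to 10 without any other array, with the median between 0.326 and 0.446. Insig2, which retains the sterol sensor SCAP in the ER, rose from 10.41, 10.43 and 10.33 to 11.01, 11.11 and 10.85 (0.60 ± 0.08, adjusted p = 0.00543) on all 3 probe sets. Insig1, its sterol-induced relative, read 10.70, 10.96 and 10.62 against 11.41, 11.54 and 11.25 (0.64 ± 0.11), a call lost without MEKi replicate 1 (0.0539) or 2 (0.0512). Hmgcs1, the synthase of the mevalonate pathway, read 11.07, 11.20 and 10.98 against 11.61, 11.76 and 11.39 (0.50 ± 0.10). Its call held without DMSO replicate 2 or MEKi replicate 3 and was lost without the other arrays (adjusted p up to 0.0873). Fatty acid synthesis genes had 4 of 21 higher, 1 lower and a median of 0.04, with none called higher in a fit of 5 arrays other than that without MEKi replicate 3.

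Of 37 lysosomal hydrolases and membrane proteins, 16 rose and none fell, at a median of 0.243. The count was 21 without MEKi replicate 3 and 4 to 11 without any other array. Smpd1, the acid sphingomyelinase, read 10.62, 10.58 and 10.35 in DMSO and 11.64, 11.80 and 11.35 in MEKi (1.08 ± 0.12, adjusted p = 0.00352). Arsa, the arylsulfatase that removes sulfate from sulfatides, rose from 9.55, 9.47 and 9.40 to 10.18, 10.30 and 10.03 (0.70 ± 0.08). Neu1, the sialidase, rose from 8.75, 8.73 and 8.81 to 9.36, 9.39 and 9.32 (0.59 ± 0.06). In all 3 the groups were separate, as in 34.5% of all genes. V-ATPase and autophagy genes had 9 of 40 higher and 1 lower (median 0.118, 4 to 11 higher in fits of 5 arrays). Gabarap, an ATG8 protein of the autophagosome, rose by 0.57 ± 0.07, Rragd, a RAG GTPase that tethers mTORC1 to lysosomes, by 0.47 ± 0.07, and Atp6v0d1, a subunit of the proton pump, by 0.43 ± 0.07.

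Pigment genes were called in 1 direction. Of 28 melanin synthesis and melanosome genes, 12 rose and none fell (median 0.227), with 13 without MEKi replicate 3 and 7 to 9 without any other array. Slc24a4, a potassium-dependent sodium and calcium exchanger, read 8.49, 8.58 and 8.36 in DMSO and 9.59, 9.89 and 9.59 in MEKi (1.21 ± 0.10, adjusted p = 0.00146). Oca2, the melanosomal anion transporter, rose from 10.37, 10.40 and 10.09 to 11.32, 11.36 and 11.11 (0.98 ± 0.10). Sytl2, an effector of RAB27A, rose by 0.90 ± 0.07, Gpr143, the melanosomal receptor, by 0.85 ± 0.09, Hps3, a BLOC-2 subunit, by 0.63 ± 0.07 and the channel gene Trpm1 by 0.54 ± 0.08. Mitf itself read 12.71, 12.67 and 12.78 against 13.05, 13.12 and 13.01 (0.34 ± 0.06), and Tyr, the tyrosinase, 12.59, 12.64 and 12.55 against 12.95, 13 and 12.89 (0.35 ± 0.06). Neither overlapped, and each lost its call in 4 of 6 fits of 5 arrays, keeping it without MEKi replicate 3 in both, without DMSO replicate 3 in Mitf and without DMSO replicate 2 in Tyr (adjusted p up to 0.0729 and 0.0626). The brightest melanocyte markers, Dct, Tyrp1, Mlana and Pmel, read above 13.9 on all 6 arrays. Their differences were 0.15 ± 0.06, 0.11 ± 0.06, 0.12 ± 0.06 and 0.17 ± 0.06, and none was called.

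Promoters of genes from these lists that rose are shown because an E-box, CACGTG, is the element that MITF and its relatives TFEB and TFE3 are known to bind in pigment and lysosomal genes, and an SRE is the element bound by the sterol factor SREBP. Mgll is from the lipolysis and lipid droplet list instead, for which no E-box share was counted. The stretches are RefSeq sequence on GRCm38.p6 on the gene's strand, from -120 to -1, with E-boxes in capitals, and that of Hmgcs1 from -160 to -61, with the SRE-like TCACNCCAC in capitals. The positions are chr8:13159041-13159160 for Lamp1 (plus strand), chr8:3500399-3500518 for Mcoln1 (plus), chr15:89477425-89477544 for Arsa (minus), chr3:20035311-20035430 for Hps3 (minus), chr12:102128607-102128726 for Slc24a4 (plus), chr6:88724292-88724411 for Mgll (plus) and chr13:119690191-119690290 for Hmgcs1 (plus).
Lamp1: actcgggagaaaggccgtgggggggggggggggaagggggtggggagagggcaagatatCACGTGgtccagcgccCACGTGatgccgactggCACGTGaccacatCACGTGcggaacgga
Mcoln1: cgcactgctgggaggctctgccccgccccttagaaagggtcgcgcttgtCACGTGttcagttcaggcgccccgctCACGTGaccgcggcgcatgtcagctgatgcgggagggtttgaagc
Arsa: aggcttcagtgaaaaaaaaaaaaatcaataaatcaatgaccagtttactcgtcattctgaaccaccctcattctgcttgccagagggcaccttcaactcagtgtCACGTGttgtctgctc
Hps3: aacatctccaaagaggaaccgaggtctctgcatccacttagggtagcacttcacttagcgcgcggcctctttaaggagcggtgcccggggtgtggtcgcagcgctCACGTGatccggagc
Slc24a4: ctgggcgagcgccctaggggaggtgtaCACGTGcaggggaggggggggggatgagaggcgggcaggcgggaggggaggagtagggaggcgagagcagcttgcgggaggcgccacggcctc
Mgll: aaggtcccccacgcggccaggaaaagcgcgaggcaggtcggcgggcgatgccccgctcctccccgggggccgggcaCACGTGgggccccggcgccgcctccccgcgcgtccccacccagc
Hmgcs1: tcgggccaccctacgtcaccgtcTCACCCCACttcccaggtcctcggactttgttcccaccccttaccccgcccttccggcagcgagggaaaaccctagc
An E-box lay in the 250 bases before the start of 13 of 33 lysosomal genes with a promoter (39.4%), 8 of 22 melanosome genes (36.4%), 7 of 33 V-ATPase and autophagy genes (21.2%) and 6 of 21 sterol genes (28.6%), and in 8.73% of all measured genes with a promoter. Within the lysosomal list 8 of the 13 genes with an E-box and 6 of the 20 without one rose, and within the melanosome list 4 of 8 and 6 of 14. The other lists went the other way, with 1 of 7 and 7 of 26 in the V-ATPase and autophagy list and 2 of 6 and 8 of 15 in the sterol list. A share above that of all genes was not particular to lists with higher genes, since the immediate early list held an E-box in 4 of 17 genes (23.5%). The SRE-like letters were present in Hmgcs1 alone among the sterol genes and in 1.27% of all genes. Lamp1, a major membrane protein of lysosomes, read 12.52, 12.49 and 12.52 against 12.79, 12.84 and 12.79 (0.30 ± 0.06), and Mcoln1, the lysosomal calcium channel, 8.34, 8.37 and 8.23 against 8.77, 8.93 and 8.64 (0.47 ± 0.09). Lamp1 lost its call without any array but MEKi replicate 3 (adjusted p up to 0.0782), and Mcoln1 without DMSO replicate 1 or 3 or MEKi replicate 1 or 2 (up to 0.0641).

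The antioxidant list held genes called in both directions. Of 32 NRF2 target and glutathione genes, 6 rose and 9 fell (median -0.076, 3 to 6 higher and 4 to 11 lower in fits of 5 arrays). The conjugating enzyme Gsta2, a glutathione S-transferase, rose from 9.43, 9.49 and 9.22 in DMSO to 10.88, 10.95 and 10.57 in MEKi (1.42 ± 0.11, adjusted p = 0.00139). The microsomal transferase Mgst1 rose from 10.51, 10.74 and 10.68 to 11.64, 11.82 and 11.53 (1.02 ± 0.09), and Gsta4 rose by 0.87 ± 0.07. The other genes called higher were the transferases Gstm2 (0.29 ± 0.06) and Gstm5 (0.28 ± 0.07) and the heme oxygenase Hmox1 (0.44 ± 0.11). Gstm2 and Gstm5 lost the call without any array but MEKi replicate 3 (adjusted p up to 0.0906 and 0.127), Gstm5 also with the replicate block (0.0583), and Hmox1 without DMSO replicate 1 or 3 or MEKi replicate 1 or 2 (up to 0.153). Osgin1, a stress gene, fell from 8.45, 8.53 and 8.42 to 7.11, 7.50 and 7.53 (-1.09 ± 0.11). Glutathione reductase Gsr fell by 0.56 ± 0.08, sulfiredoxin Srxn1 by 0.49 ± 0.08 and the quinone reductase Nqo1 by 0.43 ± 0.07. Slc7a11, the cystine carrier, read 5.53, 5.78 and 5.71 against 4.78, 4.70 and 5.19 (-0.78 ± 0.13), and its call was lost without MEKi replicate 1 (0.0545).

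ATF4 and amino acid stress genes had 7 of 26 lower and 1 higher (median -0.157, 3 to 6 lower in fits of 5 arrays). Cebpb, a bZIP factor, fell from 9.54, 9.43 and 9.40 to 8.85, 8.80 and 8.77 (-0.65 ± 0.07) and Cth, the last enzyme of cysteine synthesis, by 0.64 ± 0.09. All 23 ER chaperone and XBP1 genes had a positive difference (median 0.17) and 3 of them rose (1 to 4 in fits of 5 arrays), with Atf6, the ER stress sensor, at 8.83, 9.03 and 8.80 against 9.60, 9.73 and 9.49 (0.72 ± 0.09). Glycolysis genes had 3 of 26 higher and 2 lower (2 to 6 and 2 to 3 in fits of 5 arrays). Hk1, the hexokinase that starts the pathway, fell from 9.67, 9.73 and 9.66 to 8.79, 8.60 and 9.04 (-0.88 ± 0.11), whereas Aldoc, an aldolase, rose from 8.23, 8.29 and 8.20 to 9.15, 9.36 and 8.78 (0.86 ± 0.13) and the lactate exporter Slc16a3 rose by 0.63 ± 0.10. Among 23 hypoxia targets outside glycolysis 4 rose and 1 fell (4 to 5 higher in fits of 5 arrays), including Ndrg1, a differentiation-linked gene, at 9.35, 9.12 and 9.28 against 10.43, 10.56 and 10.19 (1.14 ± 0.10), with all 5 probe sets called. Bnip3, a mitophagy receptor, rose by 0.56 ± 0.09. Called were 13% of the ER list, 19.2% of the glycolysis list and 21.7% of the hypoxia list, against 10.9% of all genes.

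Of 35 receptor tyrosine kinases and ligands, 6 fell and 0 were called higher by limma (median -0.023). In fits of 5 arrays 3 to 6 were lower and 0 higher, except that 2 were higher without MEKi replicate 3, and other settings on 6 arrays called up to 3 higher. At an unadjusted p under 0.05, 4 were higher and 7 lower. Erbb3, the neuregulin receptor, read 10.05, 10.06 and 10.06 in DMSO and 9.15, 9.21 and 9.24 in MEKi (-0.86 ± 0.06, adjusted p = 0.000815). Fgfr3 fell by 0.59 ± 0.08 and Igf1r by 0.41 ± 0.06. In the PI3K, AKT and mTOR list 2 of 31 rose and 2 fell (1 to 2 and 1 to 4 in fits of 5 arrays, 1 and 4 with the replicate block), with Sgk1, a kinase related to AKT, falling from 8.08, 8.33 and 8.04 to 7.13, 7.26 and 7.08 (-0.99 ± 0.09). Id1, an inhibitor of bHLH factors that BMP signalling induces, fell from 9.18, 9.11 and 9.11 to 8.13, 7.94 and 8.28 (-1.02 ± 0.09). The list of TGF-beta, BMP and ID genes had 2 of 34 lower and 1 higher, 8.82% called against 10.9% of all genes. Fits of 5 arrays called 2 to 4 of them lower and 0 to 1 higher. Id2, a relative of Id1, was called higher, a call lost without DMSO replicate 2 or 3 or MEKi replicate 1 or 2 (limma adjusted p up to 0.0642). Of 26 Notch and Hedgehog genes 4 fell and none rose (3 to 4 in fits of 5 arrays), among them the Notch target Hes1 (-0.83 ± 0.10) and the ligand Jag1 (-0.69 ± 0.08). The WNT list had 3 of 41 higher and 3 lower (2 to 3 and 0 to 3 in fits of 5 arrays), with Axin2, a WNT target, at 0.63 ± 0.10. The shares called were 12.9% in the PI3K list, 15.4% in the Notch and Hedgehog list and 14.6% in the WNT list. In the receptor list the share was 17.1%, and over all genes 10.9%.

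The CCN family of matricellular proteins moved in both directions. Ccn4, also called WISP1, rose from 8.87, 8.94 and 8.80 to 10.53, 10.66 and 10.12 (1.57 ± 0.13, adjusted p = 0.00146), while Ccn2, the YAP target CTGF, fell from 9.32, 9.26 and 9.19 to 8.74, 8.69 and 8.76 (-0.53 ± 0.06). The whole YAP, TEAD and CCN list had 6 of 25 lower and 1 higher (1 to 4 lower in fits of 5 arrays and 3 with the replicate block). Of 50 matrix and matrix protease genes 4 fell and 3 rose (median 0.028, 2 to 4 in each direction in fits of 5 arrays). Adam12, a membrane metalloprotease, fell from 10.29, 10.31 and 10.38 to 7.99, 7.73 and 8.85 (-2.14 ± 0.24, adjusted p = 0.00352) on both of its probe sets. Adhesion genes had 3 of 36 in each direction (2 to 5 higher and 1 to 3 lower in fits of 5 arrays), and those that rose included the adhesion molecule L1cam (1.01 ± 0.13) and the integrin Itgb3 (0.80 ± 0.11). Called were 14% of the matrix list and 16.7% of the adhesion list, against 10.9% of all genes. Lima1, an actin cross-linker, rose by 0.70 ± 0.07, and Marcksl1, an actin-linked substrate of protein kinase C, fell by 0.75 ± 0.08. Tubb2a, a beta-tubulin, rose by 0.80 ± 0.12, and Sema6d, a semaphorin, by 1.00 ± 0.08.

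Other transcription factors and channels were among the largest movers. Hmga2, an architectural chromatin protein, fell from 9.86, 9.86 and 9.96 to 8.58, 8.48 and 9.09 (-1.18 ± 0.14). Rarb, a retinoic acid receptor, rose from 7.87, 7.72 and 7.35 to 8.96, 9.12 and 8.51 (1.22 ± 0.17), and Klf2 rose by 0.79 ± 0.07. Kcnj13, an inward rectifier potassium channel, read 5.23, 5.34 and 4.86 against 7.29, 6.98 and 6.02 (1.62 ± 0.29, adjusted p = 0.0143), with MEKi replicate 3 far below the other 2. Its call was lost without DMSO replicate 3 or MEKi replicate 1 or 2 (up to 0.0658). The 2-pore potassium channel Kcnk2 fell from 5.06, 5.06 and 5.31 to 4.02, 4.03 and 4.18 (-1.07 ± 0.09). S100b, a calcium-binding protein used as a melanoma marker, rose from 9.64, 9.78 and 9.86 to 10.91, 11.07 and 10.58 (1.09 ± 0.12), and its relative S100a1 by 1.18 ± 0.14. The carbonic anhydrase Car6 fell from 12.50, 12.45 and 12.59 to 11.06, 11.12 and 11.83 (-1.18 ± 0.18), and Slc29a1, a nucleoside transporter, fell by 1.14 ± 0.16.

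Of 19 MHC class I and peptide loading genes 4 rose and none fell (median 0.107, 0 to 5 higher and 0 to 1 lower in fits of 5 arrays). Tapbp, the chaperone tapasin, read 7.43, 7.36 and 7.13 in DMSO and 8.28, 8.42 and 7.82 in MEKi (0.87 ± 0.15, adjusted p = 0.0133), and lost its call without MEKi replicate 1 (0.0626) or 2 (0.0511). H2-K1, a class I heavy chain, read 9.69, 9.55 and 9.56 against 10.05, 9.95 and 9.79 (0.33 ± 0.08), a call lost without any array but MEKi replicate 3 (up to 0.151). B2m, the light chain, read 11.73, 11.75 and 11.71 against 12.01, 12.02 and 11.86 (0.23 ± 0.07, adjusted p = 0.0705). Heavy chain genes are near-identical, and probes can share them. Interferon-stimulated genes had 5 of 42 higher and 4 lower (median 0.035, 2 to 5 in each direction in fits of 5 arrays). Rsad2, the antiviral protein viperin, rose from 8.13, 8.07 and 7.77 to 9.09, 9.16 and 8.86 (1.05 ± 0.11), while Cxcl10, a T cell chemokine, fell from 9.42, 9.35 and 9.32 to 8.34, 8.10 and 8.27 (-1.13 ± 0.08, adjusted p = 0.000815). Cd274, which encodes PD-L1, had overlapping groups at 5.31, 5.62 and 5.65 against 5.67, 5.70 and 5.55 (0.11 ± 0.10). Of 42 chemokines and cytokines 1 rose and 1 fell (0 to 2 and 1 in fits of 5 arrays). Of 28 checkpoint ligands and galectins 1 was called, Cd47, the signal that restrains phagocytes, at 9.98, 10.07 and 9.94 against 10.29, 10.36 and 10.24 (0.30 ± 0.07). That call was lost without any array but MEKi replicate 3 (adjusted p up to 0.113), when 2 members were called. The chemokine list (4.76%) and the checkpoint list (3.57%) lay below the 10.9% of all genes called.

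The effect at 24 h was then set against that at 72 h through a limma contrast over all 12 arrays, the effect at 72 h minus the effect at 24 h. The contrast was called positive in 612 probe sets (1.36%) and negative in 746 (1.66%), together 3.02%, and in 358 genes (1.97%) positive and 382 (2.1%) negative, together 4.07%. With the replicate number as a block the counts were 804 and 1040. Tmem179, a membrane protein gene, reversed. It fell at 24 h from 8.31, 8.19 and 8.08 to 6.82, 6.67 and 6.85 (-1.41 ± 0.08) and rose at 72 h from 6.94, 6.80 and 6.23 to 8.05, 8.33 and 7.81 (1.41 ± 0.18), a difference between the effects of 2.82 ± 0.23 (adjusted p = 0.000132). Tinagl1, a secreted basement membrane protein, also reversed, at -1.60 ± 0.19 and 0.57 ± 0.14. Slc7a11 did so at -0.78 ± 0.13 and 1.17 ± 0.21, and the sulfiredoxin gene Srxn1 at -0.49 at 24 h and 1.51 at 72 h.

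Etv5 was lower at both times, but at 72 h its DMSO arrays were already low, at 5.59, 5.33 and 5.12 against 4.06, 3.93 and 4.18 in MEKi (-1.29 ± 0.12), and the effects differed by 2.77 ± 0.48 (adjusted p = 0.00852). Mest, too, had lower DMSO arrays at 72 h, at 7.75, 8.30 and 7.38, and its groups then overlapped, with 7.50, 7.69 and 7.99 in MEKi (-0.08 ± 0.21). In Erbb3 the fall at 24 h became a rise of 0.40 at 72 h, a difference between the effects of 1.26 (adjusted p = 0.000205), and in Cxcl10 the effect was 0.65 ± 0.20 at 72 h without passing the threshold (adjusted p = 0.0912).

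Other genes that rose at 24 h had a negative effect at 72 h. Ndrg1 was higher at 24 h and lower at 72 h (-0.69 ± 0.18), a difference between the effects of -1.83 ± 0.23 (adjusted p = 0.00189). Ddit4 showed 0.48 and -1.10 ± 0.18, and Trp53inp1 0.53 and -0.80 ± 0.12. Bnip3 showed 0.56 at 24 h and -0.99 ± 0.28 at 72 h, where limma's adjusted p was 0.0614, and Aldoc 0.86 and -0.53 ± 0.20 (0.161). In these stress genes the DMSO arrays themselves were higher at 72 h than at 24 h, with Bnip3 at 13.09, 12.58 and 12.91 against 10.01, 9.92 and 9.89 and Ddit4 at 11.14, 11.01 and 11.32 against 8.16, 8.36 and 8.35. Brca1 rose at 24 h and had a difference of -0.10 at 72 h (effects apart by -1.26, adjusted p = 0.012). The effect on Slc24a4 went from 1.21 to -0.16 ± 0.23. The difference between the times lost its call in 7 of 12 fits of 11 arrays for Bnip3 (adjusted p up to 0.0685) and, for Slc24a4, without DMSO replicate 3 or MEKi replicate 2 of 24 h or MEKi replicate 2 of 72 h (up to 0.0583). For Bnip3 these were the fits without MEKi replicate 1 or 2 or any DMSO array of 24 h, or without DMSO replicate 1 or 3 of 72 h. By contrast, Egr1 had differences of -3.16 at 24 h and -3.14 at 72 h, Dusp6 of -1.41 and -1.29 and Adam12 of -2.14 and -2.34, and in none of the 3 was a difference between the times called (adjusted p of 0.997, 0.866 and 0.869). A p that misses the threshold does not show that the effects were alike.

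**Figure D5:**
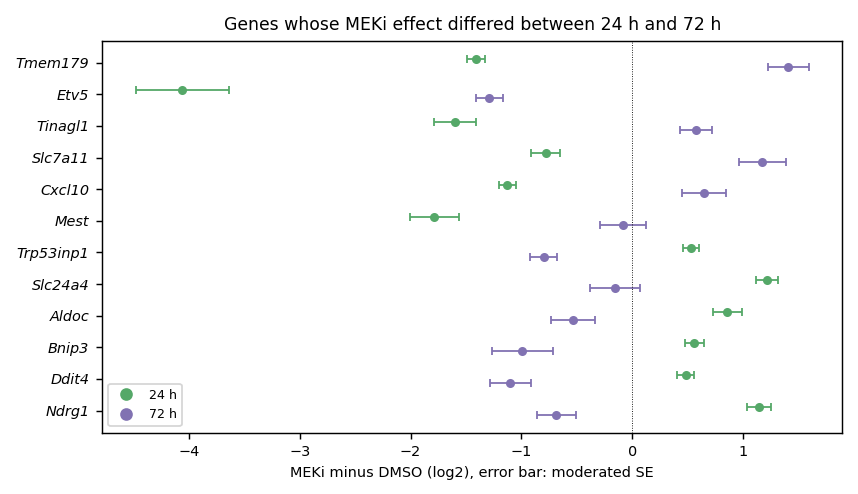
MEKi minus DMSO (log2, x axis) with its moderated standard error at 24 h (green) and at 72 h (purple) for 12 genes named for the size of the difference between the times. Tmem179, Tinagl1, Slc7a11 and Cxcl10 were negative at 24 h and positive at 72 h, and Ndrg1, Ddit4, Bnip3, Aldoc and Trp53inp1 were positive at 24 h and negative at 72 h.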

How the data were processed

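RNA of 12 B16-OVA samples was hybridised to Affymetrix mouse expression arrays, 1 array a sample. The deposited values are log2 signals that the authors made by RMA (background correction, quantile normalization and 1 summary per probe set) in Chipster, whose version is not given in the sources used here. They carry 2 decimals and run from 2.21 to 14.47, and RMA's quantile step gives all arrays nearly the same distribution, so that a general shift of RNA per cell would not be seen. The number of arrays, 3 a group, limits the precision, and an exact permutation test of 3 against 3 cannot go below 0.1.

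Of 45101 probe sets, 64 controls were left out. By GEO's platform annotation, 34945 of the rest had 1 gene, 932 several and 9160 none, and only those with 1 gene were named. Differences at 24 h were fitted with limma 3.58.1 in R 4.3.3 on the 6 arrays of that time, and the difference between the times on all 12 arrays, with Benjamini-Hochberg adjustment over 45037 probe sets. The fit was checked on simulated data. Groups and replicate numbers came from the sample titles.

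The members and the 67 gene lists (1714 of 1855 genes measured) were chosen with earlier results of these data known. Genes were named by rule. The rule took the 15 highest and 15 lowest called genes of at least median signal and with groups that did not overlap. Predicted genes and unnamed clones were passed over there. It also took up to 4 called members a list with the largest change and a fixed set of genes. For the times it took the 6 highest and 6 lowest called differences among the genes already named at 24 h. The text names a part of them. Genes shown for their promoter or to fill out a list (among them Srf, Utp4, Ltv1, Lamp1, Mcoln1, Hps3, Hmgcs1, Nr4a2, Nr4a3, Klf6, Dusp2, Erf, Plaur, Gsr, Srxn1, Nqo1, Mcm3, Cdc6, Ccne1, Cdk4, Rrp12, Rcl1, Tsr1, Gstm2, Gstm5 and Hmox1) and markers of other cell types were chosen after their values were seen.

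Arrays with the same replicate number deviated together from their group means, with correlations of 0.0729, 0.125 and 0.151 over all probe sets and 0.21, 0.286 and 0.293 over the brighter ones, against -0.156 to 0.0322 and -0.296 to 0.00898 between other numbers. The labels do not say what the number marks, so a fit with it as a block was run as an alternative, beside all 12 arrays in 1 fit, brighter probe sets, centring, a second quantile normalization, a trended and robust prior, array weights, gene means over probe sets, and each fit with 1 array fewer. Promoters were those of RefSeq on GRCm38.p6.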

Additional observations from a re-analysis of the deposited data

Results flagged for a closer look

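Of the 166 genes with values in the text, 43 had a MEKi effect that differed between 24 h and 72 h. The call was made in limma's contrast over all 12 arrays (adjusted p under 0.05), which called 4.07% of all genes. Of the 43, 21 had a positive difference (72 h effect minus 24 h effect) and 22 a negative one. Many text genes were chosen for a large 24 h difference, which the contrast subtracts, so their count cannot be compared with that share. On the log2 scale the positive differences were those of Tmem179 (2.82), Etv5 (2.77), Tinagl1 (2.17), Srxn1 (2.00), Slc7a11 (1.95), Cxcl10 (1.77), Mest (1.70), Spry4 (1.5), Osgin1 (1.31), Erbb3 (1.26), Plaur (1.21), Kcnk2 (1.11), Gsr (1.00), Etv4 (0.90), Cdk6 (0.80), Fgfr3 (0.75), Nqo1 (0.67), Polr1b (0.67), Ctps (0.51), Odc1 (0.51) and E2f3 (0.49). The negative differences were those of Ndrg1 (-1.83), Nr4a3 (-1.76), Ddit4 (-1.58), Bnip3 (-1.55), Aldoc (-1.39), Slc24a4 (-1.37), Trp53inp1 (-1.33), Gsta2 (-1.29), Brca1 (-1.26), Slc16a3 (-1.21), Ppargc1a (-1.06), Mgll (-0.95), Bcl2l11 (-0.89), Mxd4 (-0.86), Smpd1 (-0.85), Lima1 (-0.77), Phlda3 (-0.73), Cdc25b (-0.59), Mras (-0.52), Rragd (-0.52), Mki67 (-0.51) and Dusp2 (-0.45). Among the antioxidant genes Slc7a11, Srxn1, Osgin1, Gsr and Nqo1 were in the positive group and Gsta2 in the negative one, and among the ERK output genes Etv5, Spry4, Etv4 and Plaur were in the positive group and Nr4a3 and Dusp2 in the negative one. The call held in all 12 fits of 11 arrays for 28 of these genes. It was lost in at least 1 such fit for Bnip3, Ctps, Dusp2, E2f3, Fgfr3, Mgll, Mki67, Mras, Nqo1, Nr4a3, Odc1, Polr1b, Ppargc1a, Rragd and Slc24a4, with adjusted p up to 0.123. Fgfr3 lost it only without MEKi replicate 2 of 72 h (adjusted p = 0.0512). The DMSO arrays of the times differ too, and the part of this in the differences was not tested.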

How the results depend on the processing

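Of 155 called genes with values in the text, 131 kept the call under all alternatives on 6 or 12 arrays that measured them, no called gene changed sign, and neither did any of the 28 list medians of at least 0.1 in size. As reported, 1724 probe sets were higher and 2077 lower. Brighter probe sets alone gave 2733 and 3676, a trended and robust prior 2851 and 3772, and array weights 2604 and 3286. Leaving out 1 array gave 629 to 2273 higher and 504 to 2818 lower. For the difference between the times (612 and 746) the same settings gave 1090 and 1211, 951 and 1155, and 1148 and 1458, and leaving out 1 array 275 to 772 and 393 to 1026. With the replicate block the counts at 24 h were 1581 and 1717, and of the 155 genes Shc1, Phlda3, Pdgfra and Gstm5 lost the call. With all 12 arrays in 1 fit 137 kept it, and it was lost by Bard1 (adjusted p = 0.203), Bnip3 (0.201), Ccne1 (0.131), Cdc6 (0.0927), Cebpb (0.0744), Cenpa (0.0657), Col1a2 (0.0943), Cth (0.162), Ddit4 (0.0892), Gstm5 (0.0538), Hmgcs1 (0.0974), Hmox1 (0.214), Mitf (0.302), Nr4a2 (0.0511), Nr4a3 (0.0624), Pdgfra (0.108), Shc1 (0.0661) and Srxn1 (0.198). With the mean over probe sets Cd47 (0.0743), Cenpa (0.887), Erf (0.111), H2-K1 (0.079), Nr4a2 (0.0577), Pdgfra (0.0529) and Rps6 (0.321) lost it, after centring H2-K1 (0.0525), and after a second quantile normalization Shc1 (0.0606) and Srf (0.0513). Higher calls were 45.4% of the total, 39% after centring and 50.5% after a second quantile normalization. Signs turned for Fosl1 (0.02 with array weights or the mean over probe sets, and from -0.1 to 0.07 with 1 array left out, above 0 without DMSO replicate 1 or 3 or MEKi replicate 3) and Sox10 (-0.01 with centring, array weights or without MEKi replicate 3 and -0.02 without DMSO replicate 2), neither of them called. The causes were not tested. Dim probe sets limit what low genes can show.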
